A study of Mus musculus with 2 samples.

Results

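The GIMAP genes (GTPases of the immunity-associated protein family) were taken from 2 gene tables by symbol, and Gimap1, Gimap3, Gimap4, Gimap5, Gimap6, Gimap7, Gimap8 and Gimap9 were found, 8 of the 20938 genes listed. The tables hold RNA-seq of Treg cells that were isolated from the spleen on day 7 after islet transplantation, with 1 library from littermate controls and 1 library from Foxp3-Mettl14f/+ cKO mice. In the cKO mice, Cre driven by Foxp3 deletes 1 floxed allele of Mettl14, a subunit of the m6A RNA methyltransferase, in cells that express Foxp3. The recipients in both groups were C57BL/6J mice made diabetic with streptozotocin that received BALB/c islets under the kidney capsule without tolerance-inducing antibodies, and the cells were enriched with magnetic beads as CD4+CD25+ cells. The sample labels give the genotypes as wild type and as a Foxp3 knockdown, and the study's text, which gives Foxp3-Mettl14f/+ cKO, is followed here. The ages of the mice and the number pooled for each library are not given in the sources used here.

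GIMAP proteins are small GTPases that bind guanine nucleotides through a P-loop, and several of them are anchored in the membranes of mitochondria, lysosomes or other organelles. They are made mainly in lymphocytes and are known for their part in the survival of resting T cells: loss of Gimap5 leaves rodents short of T cells, and loss of Gimap1 leaves mice short of mature B and T cells. Gimap4 is known for a part in T cell apoptosis and Gimap6 for binding the autophagy protein Gabarapl2. The family is a chain of neighbouring genes that arose by duplication.

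In the libraries, all 8 genes were read deeply, with 980 to 9184 reads per gene in the control and 1034 to 7272 in the cKO library. Relative to the control library, Gimap6, Gimap5 and Gimap9 had the highest differences and Gimap7, Gimap8 and Gimap3 the lowest, and the sum over the family was almost level at 31242 in the control and 32795 in the cKO library. These levels are the deposited values, which are reads scaled by a single factor in each library. A difference is always log2((cKO level + 1)/(control level + 1)). On the deposited scale no member differed by 1.5-fold, the threshold of the study's methods. Of the genes with a mean level of 1 or more 41.4% did, and of those with 900 or more, as all 8 members have, 15.0%. Reads on B cell genes were several times more numerous in the cKO library and reads on T cell core genes fewer, so that the direction for the family depended on the genes it was set against. Each genotype has 1 library, so no difference could be set against a spread between replicates. The intervals given with the values are exact at 95%, Poisson intervals for levels per length and Clopper-Pearson intervals for all others. They cover counting error only, as no molecular identifiers are described.

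The cluster lies on chromosome 6 of GRCm38 and spans 123.6 kb, from 48647234 to 48770851. Along it, in the order of GENCODE vM21, the genes are Gimap8, Gimap9, Gimap4, Gimap6, Gimap7, Gimap1, Gimap5 and Gimap3. Gimap6 and Gimap3 lie on the minus strand and the other 6 on the plus strand. The bases that encode the P-loop are printed because they are what the members have in common, and they lie inside 1 exon of the longest coding transcript of each gene. A P-loop is a glycine, any 4 residues, then glycine, lysine and serine or threonine, and the capitals mark the codons of those fixed residues.
Gimap8, first, chr6:48650256-48650279, plus strand: GGGaaacagggcgcaGGCAAAAGT
Gimap8, second, chr6:48656119-48656142, plus strand: GGGaagcgtggtgttGGGAAAAGT
Gimap8, last, chr6:48658746-48658769, plus strand: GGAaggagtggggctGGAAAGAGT
Gimap9, chr6:48677523-48677546, plus strand: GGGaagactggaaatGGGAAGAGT
Gimap4, chr6:48690421-48690444, plus strand: GGAaaaactggagcaGGAAAGAGT
Gimap6, chr6:48702750-48702773, minus strand: GGGaaaacaggaagcGGGAAAAGT
Gimap7, chr6:48723524-48723547, plus strand: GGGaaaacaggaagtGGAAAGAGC
Gimap1, chr6:48742552-48742575, plus strand: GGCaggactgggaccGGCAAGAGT
Gimap5, chr6:48752594-48752617, plus strand: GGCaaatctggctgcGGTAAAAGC
Gimap3, chr6:48765887-48765910, minus strand: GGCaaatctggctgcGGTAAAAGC

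Each gene encodes 1 such stretch except Gimap8, which encodes 3 in a coding sequence of 688 codons. The other coding sequences hold 291 codons in Gimap9 to 328 in Gimap4. The stretches of Gimap3 and Gimap5 are the same in all 24 bases, so they cannot be told apart by a read that stays within them. The likeness between these genes goes further: 7 runs of at least 50 identical bases, 533 bases in all, are shared by their longest coding transcripts. The longest run has 140 bases. It lies in the coding sequence at chr6:48765681-48765820 on the minus strand in Gimap3 and at chr6:48752684-48752823 on the plus strand in Gimap5.
Gimap3 and Gimap5, shared coding bases: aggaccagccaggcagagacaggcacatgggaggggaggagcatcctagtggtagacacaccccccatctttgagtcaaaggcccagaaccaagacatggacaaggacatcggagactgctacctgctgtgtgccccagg

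Of the 50-base windows of these transcripts, 9.06% in Gimap3 and 9.98% in Gimap5 occurred in another member. The values of Gimap3 and Gimap5 are therefore uncertain to the extent that reads in such windows could be placed on either gene. Counting windows found in any other annotated gene, the share was 15.1% in Gimap5, 14.0% in Gimap1, 9.83% in Gimap3 and 2.62% in Gimap7, which all share windows with the read-through gene Gm28053, and Gimap1 and Gimap3 also with further genes, for Gimap1 the antisense gene Gimap1os among them. Whether the counting used strand is not stated, so Gimap1 and Gimap1os reads cannot be told apart, and neither Gm28053 nor Gimap1os was analysed here. Gimap4, Gimap6, Gimap8 and Gimap9 had no window in common with another gene.

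Because the libraries are of bulk RNA, the levels were set beside genes of other cells that the isolation could hold, and fewer cells of a type cannot be told apart from less RNA per cell. The 15 T cell core genes found, among them Cd3e, Cd4 and Lck, had 63982 reads in the control and 42843 in the cKO library, with a median difference of -0.32, and Cd3g (-0.66) and Cd4 (-0.61) reached 1.5-fold downward. Setting the median ratio of these 15 genes to 1, called the T cell core scaling, was tried beside the deposited scale. Foxp3, which defines Treg cells, had 1547 and 1361 reads, a difference of 0.05 (-0.06 to 0.15), and 0.37 under the T cell core scaling. Mettl14 had 948 and 652 reads, a difference of -0.31 (-0.45 to -0.16), and 0.01 under the T cell core scaling, and its partner Mettl3 had 1192 and 704, a difference of -0.53 (-0.66 to -0.39), and -0.21 under that scaling. Of the 13 Treg signature genes, 2 reached 1.5-fold upward (Lrrc32 and Il2ra) and 2 downward (Ikzf4 and Tnfrsf4), with a median of 0.05, and under the T cell core scaling 6 did so upward and none downward, with a median of 0.37. Of all genes, 17.2% reached 1.5-fold upward and 24.2% downward, and under the T cell core scaling 29.0% and 19.1%. The labelled Treg cells thus showed their defining gene, but markers of other cells were also read: the 12 granulocyte genes, led by S100a9, had 269785 and 312376 reads, of which 2 genes (Camp and Ngp) reached 1.5-fold upward and 2 (Mpo at -1.03 and Prtn3 at -1.17) downward.

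All 13 B cell genes found, among them Pax5 and Cd79a, reached 1.5-fold upward, with 12099 reads in the control and 46177 in the cKO library. All 13 macrophage genes did as well, with 27015 and 49239 reads, of which Lyz2 alone had 21710 and 33118. The totals of this list thus mostly reflect 1 gene. Marco had 0 reads in the control library. Of the 11 genes of CD8 T and NK cells, 7 reached 1.5-fold upward, Cd8b1 (2.46) and Cd8a (2.25) most. The isolation depletes cells that are not CD4+ T cells before CD25+ cells are selected, a step that should remove these cells. B cells, CD8 T cells and NK cells also express GIMAP genes, and the part of these cells in the GIMAP values was not tested. Endothelial cells can express GIMAP genes too. Of their 11 genes that passed the filter, 2 reached 1.5-fold upward and 4 downward, with 3695 and 3839 reads on the whole list. Pecam1, which leukocytes also express, had 2339 and 2836 of these, Cdh5 had 84 and 35, Tek had 22 and 0, Stab2 had 31 and 158, Robo4 had 0 and 5, and Emcn was at 0 in both libraries. Of 8 erythroid genes, 5 reached 1.5-fold downward and none upward, with 16133 and 9734 reads. Beside the counts of these lists, 17.2% of all genes reached 1.5-fold upward and 24.2% downward.

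Levels were compared between members only per length, as reads per kb of merged exon in 1000000 reads. Gimap3, which encodes a membrane-anchored member known to affect how mitochondrial DNA variants segregate in blood cells, was the highest in both libraries at 176 in the control (95% interval 173 to 180) and 154 in the cKO library (150 to 158). Gimap4 followed at 145 (141 to 149) and 139 (135 to 143). In the control library these values placed Gimap3 at percentile 99.3 and Gimap4 at percentile 99.1 of the 20490 genes with a length.

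Gimap6 came next at 79.8 (77.7 to 81.9) in the control and 105 (102 to 107) in the cKO library. Gimap8, the member with 3 P-loops, stood beside it in the control library at 78.8 (76.8 to 80.8) and at 66.1 in the cKO library (64.2 to 68.0). The 2 intervals overlapped in the control library and were separate in the cKO library. Gimap9 was at 55.3 (52.8 to 57.9) and 62.0 (59.3 to 64.9), so that in the cKO library the intervals of Gimap8 and Gimap9 overlapped.

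The 3 lowest members were Gimap7, Gimap1 and Gimap5. Gimap7, whose protein can stimulate GTP hydrolysis by another member, was at 32.4 in the control (30.8 to 34.0) and 26.1 in the cKO library (24.6 to 27.7). Gimap1 was at 29.6 (28.3 to 31.0) and 29.8 (28.4 to 31.2). Gimap5, the lysosomal membrane member that keeps resting T cells alive, was the lowest at 11.7 (11.0 to 12.4) and 13.6 (12.8 to 14.5). Gimap7 and Gimap1 overlapped in the control library, where Gimap7 was above Gimap1, and were separate in the cKO library, where the order was the other way round. Even Gimap5 was at percentile 77.4 of all genes in the control and 80.8 in the cKO library.

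The order depended on the length for Gimap6. Its merged exons add up to 3496 bases and its longest coding transcript to 1594, and with the latter Gimap6 was at 175 in the control library, behind Gimap3 at 212, and at 229 in the cKO library, ahead of Gimap3 at 185. Gimap7 and Gimap1 also changed places in the control library with that length. Gimap5 was the lowest with both.

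**Figure D1:**
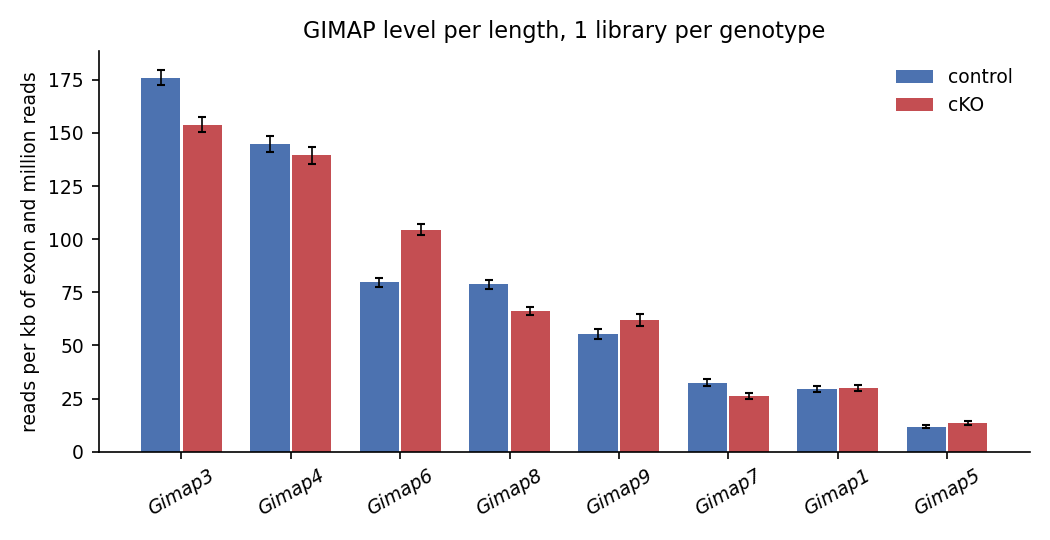
Level of each GIMAP gene in reads per kb of merged exon in 1000000 reads, with the control library in blue and the cKO library in red, 1 library each, and 95% counting intervals as bars. Gimap3 is highest at 176 and 154, Gimap5 lowest at 11.7 and 13.6, and Gimap6 is the member with the largest step up, from 79.8 to 105.

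The differences between the libraries were given first for the members with the higher values in the cKO library. Gimap6 was at a level of 5461 (5645 reads) in the control and 7619 (6700 reads) in the cKO library, a log2 difference of 0.48 (95% interval 0.43 to 0.53), or 1.40-fold. Gimap5 had 948 and 1176, from 980 and 1034 reads, a difference of 0.31 (0.18 to 0.44). Gimap9 had 1779 and 2123, from 1839 and 1867 reads, a difference of 0.25 (0.16 to 0.35). These 3 members were higher in the cKO library under all 5 scalings tried, with their lowest values when reads were scaled to 1000000, at 0.39, 0.22 and 0.16.

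Gimap1 and Gimap4 lay close to 0. Gimap1 was at 1782 (1842 reads) in the control and 1907 (1677 reads) in the cKO library, a difference of 0.10 (0.0016 to 0.19). Gimap4 had 5206 and 5339, from 5381 and 4695 reads, a difference of 0.04 (-0.02 to 0.09), and the sign turned to -0.05 when reads were scaled to 1000000. For Gimap4 the interval included 0, and for Gimap1 its lower end was almost at 0.

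The remaining 3 members were lower in the cKO library. Gimap7 was at 1473 (1523 reads) in the control and 1266 (1113 reads) in the cKO library, a difference of -0.22 (-0.33 to -0.11). Gimap8 had 5709 and 5096, from 5901 and 4481 reads, a difference of -0.16 (-0.22 to -0.11). Gimap3 had 8884 and 8269, from 9184 and 7272 reads, a difference of -0.10 (-0.15 to -0.06). Gimap3 and Gimap5 summed gave -0.06 (-0.10 to -0.02). The sum does not depend on how shared reads were divided between these genes. It would still depend on shared reads that were dropped, counted for both or placed on Gm28053, and the counter is not stated. The lower values of Gimap7, Gimap8 and Gimap3 held under every scaling except the T cell core scaling, where they were 0.10, 0.15 and 0.21.

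None of the members, 0 of 8, reached 1.5-fold in either direction. Of the 16659 genes whose mean level was 1 or more, 17.2% reached 1.5-fold upward and 24.2% downward, 41.4% together. Of the 5263 genes whose mean level was 900 or more, a limit that all 8 members pass and that was chosen after their values were seen, the shares were 9.9%, 5.07% and 15.0%. The median difference was 0.07 over the members and -0.04 over all genes. The members spread from percentile 38.5 (Gimap7) to percentile 79.9 (Gimap6) of the differences of all genes.

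**Figure D2:**
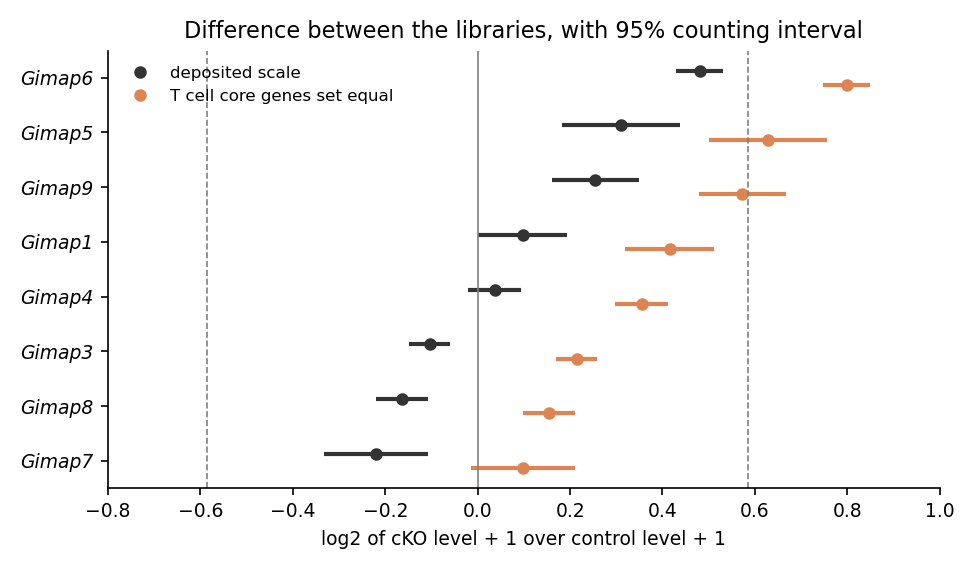
Log2 difference of each GIMAP gene between the cKO and the control library, on the deposited scale in black and under the T cell core scaling in orange, with 95% counting intervals as lines and 1.5-fold as dashed lines. On the deposited scale the members run from -0.22 for Gimap7 to 0.48 for Gimap6 without reaching a dashed line, and under the T cell core scaling all 8 are above 0 and Gimap5 and Gimap6 pass 1.5-fold.

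The make-up of the family's reads does not depend on any scaling between libraries. Gimap3 held 28.4% of the GIMAP reads in the control library (27.9 to 28.9) and 25.2% in the cKO library (24.7 to 25.7). Gimap6 held 17.5% (17.1 to 17.9) and 23.2% (22.7 to 23.7), so that Gimap6 went from the third largest share to the second. Gimap8 held 18.3% (17.9 to 18.7) and 15.5% (15.1 to 16.0).

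Of the members with small shares, Gimap9 went from 5.69% to 6.47%, Gimap5 from 3.03% to 3.59% and Gimap7 from 4.72% to 3.86%, each with separate intervals. For Gimap4, at 16.7% and 16.3%, and Gimap1, at 5.70% and 5.82%, the intervals overlapped. The widest divergence between any pair of members was that of Gimap6 and Gimap7: Gimap6 reads per Gimap7 read numbered 3.71 in the control and 6.02 in the cKO library, a 1.62-fold difference. For Gimap6 and Gimap8 the ratio went from 0.957 to 1.50, a 1.56-fold difference.

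**Figure D3:**
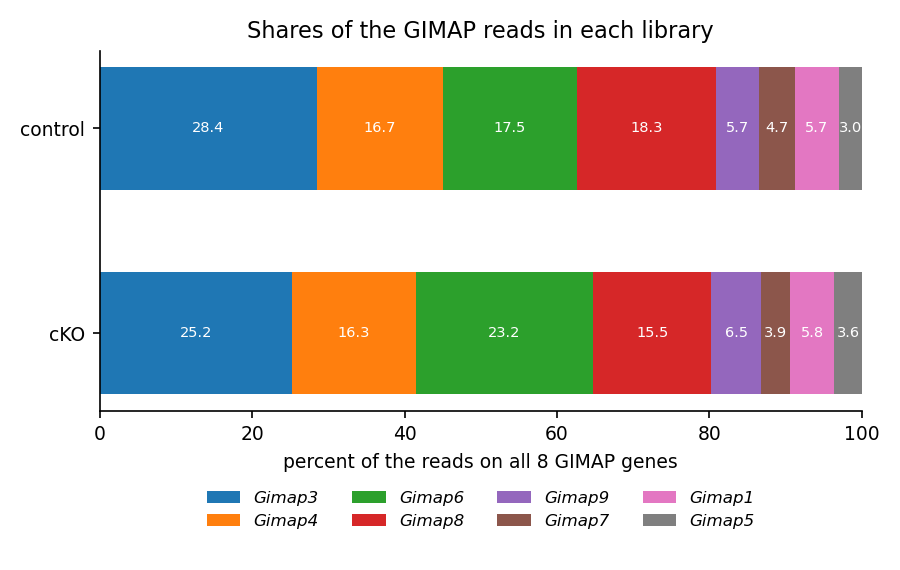
Share of each GIMAP gene among the reads on all 8 members, in percent, for the control library in the upper bar and the cKO library in the lower bar. The Gimap6 segment widens from 17.5% to 23.2%, and those of Gimap3 and Gimap8 narrow from 28.4% to 25.2% and from 18.3% to 15.5%.

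On the deposited scale the directions were mixed along the chromosome, whereas under the T cell core scaling all 8 members were above 0. Along the cluster from Gimap8 to Gimap3 the differences were -0.16, 0.25, 0.04, 0.48, -0.22, 0.10, 0.31 and -0.10, so that Gimap6, with the highest difference, lies next to Gimap7, with the lowest. The 2 members on the minus strand, Gimap6 and Gimap3, were at 0.48 and -0.10 on the deposited scale and at 0.80 and 0.21 under the T cell core scaling. Of the 12 flanking genes in the tables, from Zfp467 on one side to Aoc1 on the other, 3 were listed at 0 in both libraries, 2 reached 1.5-fold upward (Zfp775 and Gm7932) and 2 downward (Sspo and Gm5111). Of all genes, 17.2% reached it upward and 24.2% downward. The flanking genes together had 2740 reads in the control and 2317 in the cKO library, with no gene above 1127, against 32295 and 28839 on the GIMAP genes. Gm7932 had 0 and 6 reads and Gm5111 had 6 and 0, and the nearest gene above the floor of 3 reads in both libraries, Zfp775, had 92 and 138, a difference of 0.81 (0.43 to 1.21).

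**Figure D4:**
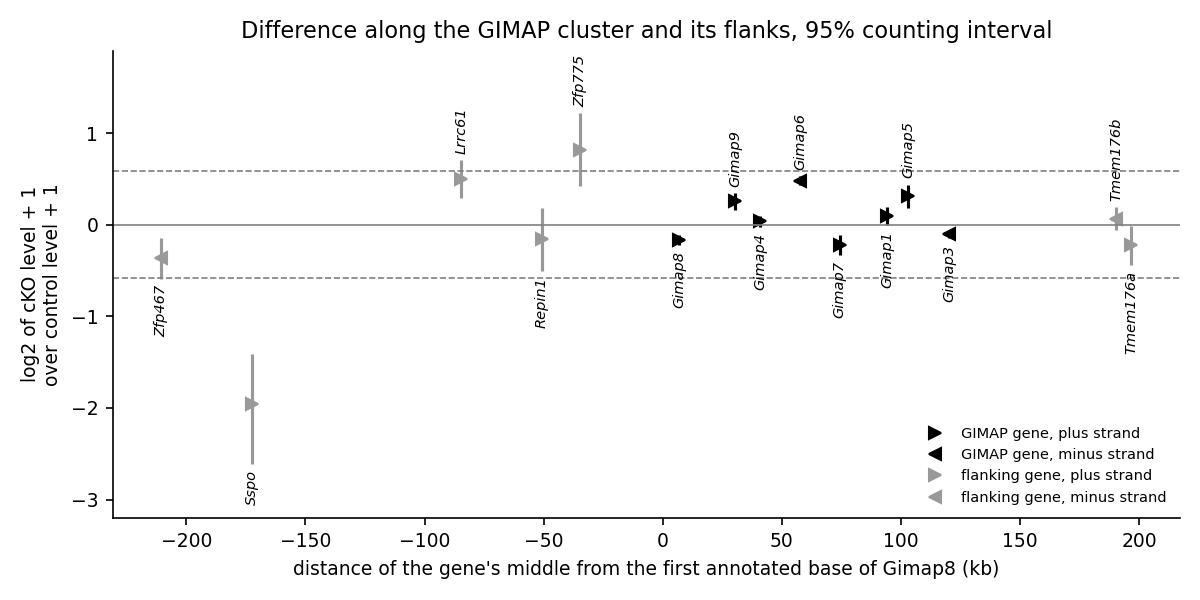
Log2 difference between the cKO and the control library at the middle of each gene, by distance in kb from the first annotated base of Gimap8, for GIMAP genes in black and flanking genes in grey, with arrowheads for the strand, 95% counting intervals as lines and 1.5-fold as dashed lines. The GIMAP genes lie between -0.22 and 0.48 with short intervals, and the flanking genes, which have fewer reads and of which those listed at 0 in a library are not drawn, run from -1.96 for Sspo to 0.81 for Zfp775.

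The promoters of the 2 members at the ends of the range are printed because these neighbours differed in direction on the deposited scale. RefSeq on GRCm38.p6 gave 9 promoters for the 8 members, each with 250 bases before the start and 50 after it, and the 250 bases before the start are shown. The motifs searched, on both strands and with overlaps allowed, were AGGAAG for ETS proteins, TGTGGT for RUNX proteins, TGTTTAC for forkhead proteins, CCACCC for Kruppel-like proteins, CTTTGA for TCF and LEF proteins and TATAAA for the TATA-binding protein, and capitals mark their matches.
Gimap6, chr6:48708245-48708494, minus strand: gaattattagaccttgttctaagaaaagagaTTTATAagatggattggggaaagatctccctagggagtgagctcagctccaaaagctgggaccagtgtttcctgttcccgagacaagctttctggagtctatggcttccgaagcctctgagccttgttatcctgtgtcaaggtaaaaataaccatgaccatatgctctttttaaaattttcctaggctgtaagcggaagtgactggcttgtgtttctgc
Gimap7, chr6:48718371-48718620, plus strand: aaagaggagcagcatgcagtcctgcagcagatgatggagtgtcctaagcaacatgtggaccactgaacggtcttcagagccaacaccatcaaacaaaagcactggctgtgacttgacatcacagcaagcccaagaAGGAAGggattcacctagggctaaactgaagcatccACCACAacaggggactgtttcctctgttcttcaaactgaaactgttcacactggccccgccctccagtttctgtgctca

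Of the motifs searched Gimap6 held only TATAAA, which 13.6% of all promoters hold, and its match lies near the upstream end of the window, far from the start. Gimap6 was the single member without the exact letters AGGAAG, found in 7 of 8 members, 7 of their 9 promoters, and in 35.4% of all promoters. Its printed bases do hold CGGAAG, which differs from AGGAAG in the first letter only, so a lack of ETS sites cannot be read from this. Gimap7 held AGGAAG for ETS proteins, TGTGGT for RUNX proteins and, after the start, the TCF and LEF motif CTTTGA. The RUNX motif was found in Gimap7, Gimap4 and Gimap1 and in 16.8% of all promoters. CCACCC was found in 5 members, Gimap8, Gimap9, Gimap4, Gimap5 and Gimap3, and in 31.5% of all promoters. CTTTGA was found in Gimap4 and Gimap7 and in 16.0% of all promoters, and TGTTTAC in Gimap3 alone and in 3.65%. A member was counted if any of its promoters matched, whereas the shares of all promoters count each promoter. The Gimap8 promoter at chr6:48646984-48647283 held none of the motifs. These are matches of letters in a window and not binding sites.

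Because Mettl14 belongs to the enzyme that writes m6A, the 5 letters GGACT, a form of its preferred sequence, were counted on the sense strand of each member's longest coding transcript. Gimap1 held 4 (2.68 per kb), Gimap6 held 3 (1.88 per kb), Gimap3 held 3 (1.40 per kb), Gimap5 held 2 (1.02 per kb) and Gimap8 held 2 (0.637 per kb). Gimap4, Gimap7 and Gimap9 held none. Of 20351 coding transcripts, 88.3% held at least 1, with a median of 1.02 per kb and quartiles of 0.579 and 1.53. Those transcripts had a median of 2662 bases, against 1804 in Gimap4, 1269 in Gimap7 and 1384 in Gimap9. A shorter transcript has fewer places for a match, so the 88.3% is not a share for transcripts of like length. The matches in Gimap6, the member with the highest difference, and Gimap1, the member with the most matches per kb, are printed with GGACT in capitals.
Gimap6, coding, chr6:48704435-48704455: tggcccctGGACTctggacaa
Gimap6, coding, chr6:48702655-48702675: ccagaaagGGACTagagagtt
Gimap6, 3' UTR, chr6:48701935-48701955: cattatctGGACTatttaata
Gimap1, 5' UTR, chr6:48739131-48739151: cacttcagGGACTgtcagcaa
Gimap1, coding, across an exon junction, from chr6:48741417 to 48742518: ggctcagaGGACTccagggcc
Gimap1, coding, chr6:48742548-48742568: agtgggcaGGACTgggaccgg
Gimap1, 3' UTR, chr6:48743503-48743523: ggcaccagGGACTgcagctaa

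The Gimap1 match at chr6:48742548-48742568 overlaps its P-loop codons. The members without a match had differences of 0.04, -0.22 and 0.25, and those with a match ran from -0.16 to 0.48. m6A was not measured in these libraries.

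Set against T cell core reads, the family was higher in the cKO library. For every 1000 T cell core reads the control library held 505 GIMAP reads (498 to 512) and the cKO library 673 (663 to 683), 1.33-fold, and all 8 members were above 1-fold. Gimap6 stood at 88.2 and 156 (1.77-fold), Gimap5 at 15.3 and 24.1 (1.58-fold) and Gimap9 at 28.7 and 43.6 (1.52-fold). Gimap1 stood at 28.8 and 39.1, Gimap4 at 84.1 and 110, Gimap3 at 144 and 170, Gimap8 at 92.2 and 105 and Gimap7 at 23.8 and 26.0 (1.09-fold).

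Under the T cell core scaling, the median difference of all genes moved by 0.32, from -0.04 to 0.27, and the family stood at 0.39 (0.37 to 0.41). That interval takes the scaling factor as known. The T cell core genes themselves ran from -0.34 (Cd3g) to 0.40 (Cd2) under this scaling. Gimap6 (0.80) and Gimap5 (0.63) then reached 1.5-fold upward, 2 of 8 members, against 29.0% of all genes upward, 19.1% downward and 48.2% together. These shares are 4838 genes upward and 3187 downward, against 2864 and 4028 on the deposited scale.

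The direction turned with some of the other references. Against the 13 genes of resting T cells, which include Klf2, Il7r and Tcf7, there were 449 GIMAP reads per 1000 in the control (443 to 455) and 397 in the cKO library (391 to 402), 0.883-fold. Against the B cell genes there were 2669 and 625, 0.234-fold. Against the T cell core and resting T cell genes together there were 238 and 250, 1.05-fold, and against Cd3d, Cd3e and Cd3g there were 2927 and 4105, 1.40-fold, so that both of these kept the family higher in the cKO library. Of the resting T cell genes, Klf2 (0.84) and Bach2 (0.63) reached 1.5-fold upward and none downward, and Il7r (0.58) lay just under the threshold, with a median of 0.44 over the list. Of all genes, 17.2% reached it upward and 24.2% downward. The 28 genes of both T cell lists were compared with the summed family, whose difference was 0.07 (0.05 to 0.09), by the size of the gap in log2 difference over the 2 libraries. The nearest were S1pr1, the receptor that lets T cells leave lymphoid organs, at 0.07, the adhesion receptor Cd2 at 0.08 and the actin crosslinker Actn1 at 0.09.

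Gene families and pathways that have been tied to GIMAP proteins were described from fixed lists. The lists are whole families or pathways, so a gene's place in one does not tie that gene to a GIMAP protein. Of the 5 ATG8 genes, whose products coat autophagosomes, Map1lc3a reached 1.5-fold upward (62 and 177 reads, 1.73) and Gabarapl1 downward (571 and 257 reads, -0.92). Of all genes, 17.2% did so upward and 24.2% downward. Under the T cell core scaling 2 of the 5 reached it upward, Map1lc3b (0.62) being the added one, and 1 downward. Gabarapl2, the partner of Gimap6, had 924 and 687 reads, a difference of -0.19 (-0.34 to -0.05), opposite in sign to Gimap6 on the deposited scale but at 0.12 under the T cell core scaling. Of the 15 genes of the BCL2 family that passed the filter, 5 reached 1.5-fold upward and 1 downward, with a median of 0.46, beside 17.2% upward and 24.2% downward of all genes. Under the T cell core scaling 11 reached it upward and 1 downward, with a median of 0.78, beside 29.0% and 19.1% of all genes. The higher ones were the pro-apoptotic BH3-only genes Bmf (1.77), Bbc3 (1.52) and Pmaip1 (1.25) and the anti-apoptotic genes Bcl2a1a (0.69) and Bcl2 (0.67), and the lower one was Bik, with 27 and 0 reads. Bcl2a1a has near-identical copies, and its value is uncertain to that extent.

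Of the 6 genes of the GSK3 and NFAT list, which have been tied to Gimap5 in T cell activation, none was 1.5-fold apart on the deposited scale, and the median was 0.12. All 6 had a mean level of 900 or more, where 15.0% of genes were 1.5-fold apart, against 41.4% of all genes. Gsk3b had 3750 and 2606 reads, a difference of -0.29 (-0.36 to -0.22), and 0.03 under the T cell core scaling. Nfatc1 had 4765 and 6025 reads, a difference of 0.57 (0.52 to 0.63), and 0.89 under the T cell core scaling. There it was the 1 gene of the list past 1.5-fold, beside 48.2% of all genes in either direction. The values of the GIMAP genes, with none of 8 past the threshold, are set beside those of these lists in the plot by gene list.

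**Figure D5:**
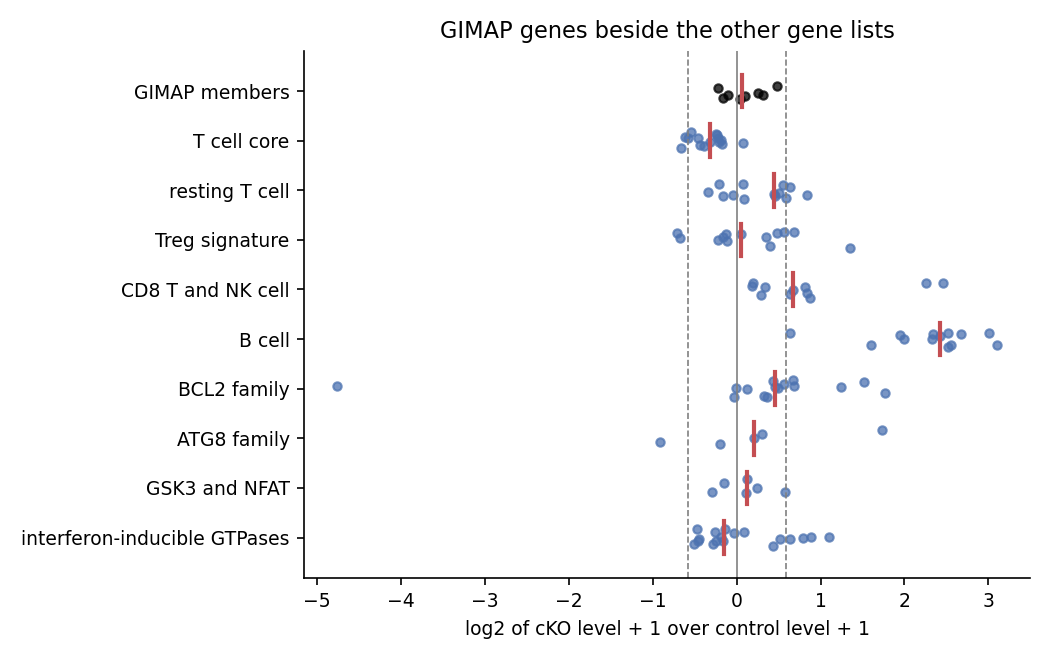
Log2 difference between the cKO and the control library for each gene that passed the filter, as points, by gene list, with the list's median as a red line and 1.5-fold as dashed lines. The GIMAP members (black) centre on 0.07, between the T cell core genes at -0.32 and the resting T cell genes at 0.44, and of the lists drawn the B cell genes have the highest median at 2.42.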

How the data were processed

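RNA-seq of splenic Treg cells was deposited as 1 table per library, with 1 library per genotype. The methods name TopHat as the aligner and mm10 as the build. The submitters' processing notes also name bcl2fastq 2.0, STAR, StringTie and DESeq2 without a role. The counter, annotation and normalization are not given in the sources used here. The values deposited by the authors are a signal: each is a number of reads scaled by a single factor for its library, as whole reads were recovered for 100% of genes (tolerance 0.01 read). A read was worth 0.967 in the control and 1.14 in the cKO library, which gave 20239325 and 18327535 reads, with 16187 and 14563 genes above 0.

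Symbols were matched to GENCODE vM21 on GRCm38 (20490 of 20938). Differences used a pseudocount of 1, a mean level of at least 1 and a threshold of 1.5-fold, with no p-value because there is 1 library per genotype. Intervals are exact at 95%, Poisson for levels per length and Clopper-Pearson for all others, and the floor is 3 reads. The T cell core scaling sets the median ratio of those genes to 1, and intervals under it take that factor as known. For genes with 10 reads or more, an exact binomial test (two-sided) of recovered reads against TMM-scaled totals, with an adjusted p under 0.1, compares the 2 libraries only. In simulated libraries of this depth, 95.8% of 14848 genes had the simulated ratio inside their interval. The simulated counts had Poisson counting error only, which the interval assumes. The simulation therefore checks the calculation and not the spread between mice or preparations. The T cell receptor constant genes, Ighm, Ighd and protein sequences were not analysed here.

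The members and lists were chosen with earlier results of these data known. The genes named are the members, Mettl14, Mettl3 and Foxp3, the flanking genes, the genes of the pathway lists, the defining or 1.5-fold different genes of the cell type lists, and the 3 genes nearest the family. The alternatives were other pseudocounts, filters, scalings, thresholds, members and reference genes. TMM factors came from edgeR 4.0.16 in R 4.3.3, and the rest from Python 3.11.15 (numpy 2.4.6, scipy 1.17.1, pandas 2.3.3, matplotlib 3.10.9).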

Additional observations from a re-analysis of the deposited data

How the results depend on the processing

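The count of members at least 1.5-fold lower was 0 under every alternative run, but 2 members, Gimap5 and Gimap6, were at least 1.5-fold higher under the T cell core scaling. The exact binomial test with 1.5-fold, which compares the 2 libraries only, called 2085 genes higher and 2665 lower of 14863 tested, and no member. The family's summed difference was 0.047 with TMM, -0.020 when reads were scaled to 1000000 and 0.39 under the T cell core scaling, and the members' median was -0.023 and 0.39 under the latter 2. Under the T cell core scaling, Gimap3 (0.21), Gimap7 (0.10) and Gimap8 (0.15) turned positive. The summed difference was 0.13 without Gimap3 and Gimap5, and 0.13 without the most abundant member, Gimap3. Relative to T cell core reads the family's difference was 0.42, against 0.49 per read of Cd3d, Cd3e and Cd3g, 0.071 per read of the T cell core and resting T cell genes, -0.18 per resting T cell read and -2.10 per B cell read. The last 2 references and a minimum mean of 900 were chosen after seeing the data. Over all genes, 2035 were at least 1.5-fold lower and 2112 higher with a minimum mean of 10. When only genes above 0 in both libraries were kept, 1904 were lower and 2182 higher. With a minimum mean of 900, 267 were lower and 521 higher. The excess of lower genes with the main filter, 4028 against 2864, was therefore not kept once genes with low values were dropped. Under the T cell core scaling 3187 were lower and 4838 higher, and at 2-fold 3019 and 1722. Leaving out the T cell receptor constant genes changed nothing because none was matched. Filters on low values cannot change a single member's difference. Only scaling to 1000000 reads and the T cell core scaling moved a member by more than its counting interval. Apart from what each alternative's construction shows (fewer genes, other references), the cause was not tested. No paired analysis was possible because a single library stands for each genotype.

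Counting error is the only error known, and neither the spread between mice nor that between library preparations can be given. On the deposited scale the depth, 980 reads or more per member, left the difference of Gimap4 with an interval that includes 0.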

Other observations

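The interferon-inducible GTPases, which like the GIMAP proteins bind guanine nucleotides but act in defence against intracellular pathogens, were taken as another GTPase group of immune cells. Of 18 genes, 4 reached 1.5-fold upward in the cKO library and none downward, with a median difference of -0.15. Of all genes, 17.2% did so upward and 24.2% downward. Under the T cell core scaling 6 of the 18 reached it upward and none downward, with a median of 0.17. The shares of all genes were then 29.0% and 19.1%. The 4 higher ones on the deposited scale were guanylate-binding proteins: Gbp9 had 2381 reads in the control and 3503 in the cKO library (0.79), Gbp5 had 508 and 799 (0.89), Gbp2b had 41 and 76 (1.10) and Gbp11 had 71 and 94 (0.63). The immunity-related GTPases Irgm1, Irgm2, Igtp, Iigp1, Ifi47, Tgtp1 and Tgtp2 lay between -0.47 for Iigp1 and -0.14 for Irgm2, but between -0.15 and 0.18 under the T cell core scaling. Tgtp1 and Tgtp2 are near-identical copies, as are several guanylate-binding protein genes, and their separate values are uncertain to that extent.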
